A study of Rattus norvegicus with 16 samples.

Results

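The cells described here are those that the authors' final cell-type column left without a name in the injured discs of rats taken 8 weeks after surgery. The labels in that column are Chondrocyte or Chondrocyte cell, Endothelial, Macrophage and Immune cells. They are called here by the paper's terms, in that order intervertebral disc (IVD), endothelial, myeloid and lymphoid. A cell was a member where the column held "N/A" in place of any of these labels. There were 1182 members among the 28283 cells of these injured discs, in a series of 149272 cells. The injured libraries of rats 5, 6, 7 and 8 gave 111, 628, 411 and 32 members. Rat 6 therefore supplied 53.1% of all members from the smallest of these libraries, and the shares that rest on it are given with and without it.

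All animals were male Sprague-Dawley rats, 8 weeks old at surgery, with no genetic modification named. The L4-5 and L5-6 discs were stabbed once with a 27G needle and pooled into 1 library per rat (lumbar disc puncture, LDP), and the untouched L2-3 and L3-4 discs of the same rat were pooled as its control (CON). Rats 1 to 4 were taken at 2 weeks and rats 5 to 8 at 8 weeks, which gave 16 single-cell libraries (10x Genomics 3′ chemistry) in 4 groups of 4. The control discs lay in the same operated spine, so no group came from an unoperated animal. At 8 weeks the injured libraries held 2221 to 10134 cells with a median of 6209.0 to 8091.7 unique molecular identifiers (UMIs) per cell, and the control libraries held 4696 to 8176 cells with a median of 4670.9 to 7565.9.

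The disc is a largely avascular and aneural cartilage, in which nerve fibres and blood vessels normally reach only the outer annulus fibrosus and the endplates. Schwann cells are the glia of peripheral nerves: myelinating ones wrap a single axon in myelin, non-myelinating ones hold bundles of thin fibres that include pain fibres, and after nerve damage both can turn into repair cells. Neutrophils, mast cells, basophils, T cells and dendritic cells are blood-derived immune cells that a puncture or the vertebral marrow next to a disc can bring into a digest, and red cell precursors belong to marrow.

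The members were not 1 population. Leiden clustering of their expression gave 13 subclusters, which were named from marker lists where at least 3 markers were detected (a UMI in 10% of the subcluster's cells and a level more than 2-fold that of all other cells). Schwann-like cells made up 602 members (50.9%) in 5 subclusters, and 17 of the 554 members (3.07%) without rat 6. T and NK-like cells made up 152, granulocyte-like cells 177 in 2 subclusters, mast cell-like cells 59 and erythroid-like cells 35. Subcluster 2 was named on 5 of 10 detected Schwann markers, with none of them among its 10 leading genes. In 3 subclusters no name was given despite detected markers, a choice made after their values were seen. They were 90 shallow cells led by Stfa2, Ccl6, Retnlg and Mmp8 (the Stfa2 subcluster), 45 cells led by Slpi, Clec9a and class II genes (the Clec9a subcluster) and 22 cells carrying disc and granulocyte genes together.

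The 4 libraries differed in which of these cells they held. In rat 6, 585 of 628 members (93.2%) were Schwann-like. In rat 7, 149 of 411 members (36.3%) were granulocyte-like, 84 (20.4%) belonged to the Stfa2 subcluster and 81 (19.7%) were T and NK-like. A single cell of rat 7 was Schwann-like. In rat 5, 39 of 111 members were T and NK-like, 28 (25.2%) were erythroid-like and 5 were Schwann-like. In rat 8, 11 of 32 members were Schwann-like and 10 were T and NK-like. Mast cell-like cells were found in every library, as 8, 4, 43 and 4 cells in rats 5 to 8, and so were cells of the Clec9a subcluster, as 9, 5, 28 and 3 cells. Outside rat 6, 5, 1 and 11 Schwann-like cells were left in rats 5, 7 and 8.

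**Figure D1:**
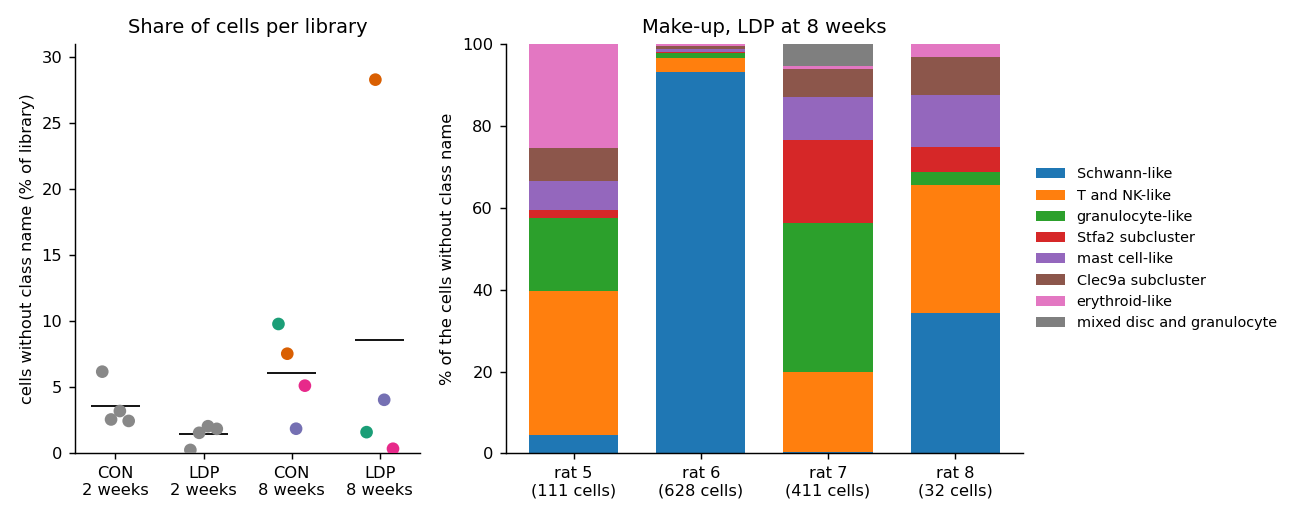
Left, the percentage of each library's cells that carried no class name (points, 1 per library; horizontal lines, group means), with rats 5 to 8 in the colours green, orange, violet and pink and the 2-week rats in grey. Right, the make-up of those cells in the 4 injured libraries at 8 weeks, as percentages of the members of each rat: rat 6 stands apart at 28.3% of its cells on the left, and its members on the right are 93.2% Schwann-like, while the other rats hold mixtures.

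The members were set against the named classes of the same libraries through mean CPM, the UMIs of a gene in a cell scaled to a common total and averaged over cells. A named class entered in the libraries where it had at least 20 cells, which left out the 19 myeloid cells of rat 8. Since the names define the groups, these ratios are descriptions and no test was made. Of 14319 genes listed, 40 (0.279%) reached 20 CPM in the members of every library and stood above every named class in all 4. Among the 15 with the largest ratios were 4 genes of the granulocyte list, S100a8, S100a9, Ngp and Camp, and 2 of the mast cell list, Cpa3 and Cma1. Ngp, a granule protein of neutrophil precursors, averaged 1382, 369, 8040 and 2314 CPM in the members of rats 5 to 8, against at most 11.1 CPM in any named class of any library. Rats 5 to 8 held 20, 7, 149 and 1 granulocyte-like cells and 2, 2, 84 and 2 cells of the Stfa2 subcluster. Rats 6 and 8 thus had few cells of these kinds. Mcpt8, a protease known from basophils, averaged 4703, 975, 684 and 855 CPM against at most 2.90 CPM. Cpa3, the carboxypeptidase of mast cell granules, averaged 929, 179, 1779 and 2139 CPM against at most 1.97 CPM. The order of the libraries was not the same for these genes, with rat 7 highest for Ngp, rat 5 for Mcpt8 and rat 8 for Cpa3.

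The lists of marker genes gave the same picture by library. In the members of rat 6, 10 of the 10 Schwann marker genes and 16 of 17 myelin genes were more than 2-fold above every named class, where 5.04% of all listed genes were. In rat 7 the counts were 0 of 10 and 2 of 17, where 3.76% of all genes were, and in rats 5 and 8 they were 6 and 5 of 10 Schwann markers, with 4.29% and 5.61% of all genes. The granulocyte list passed in 10, 4, 10 and 6 of its 10 listed genes in rats 5 to 8, and the mast cell list in 6, 6, 6 and 5 of 6. Rat 8 held 1 granulocyte-like cell and 2 cells of the Stfa2 subcluster. The T and NK list passed in 6, 4, 5 and 3 of 7 genes. No gene of the endothelial, disc or pericyte lists passed in any library.

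**Figure D2:**
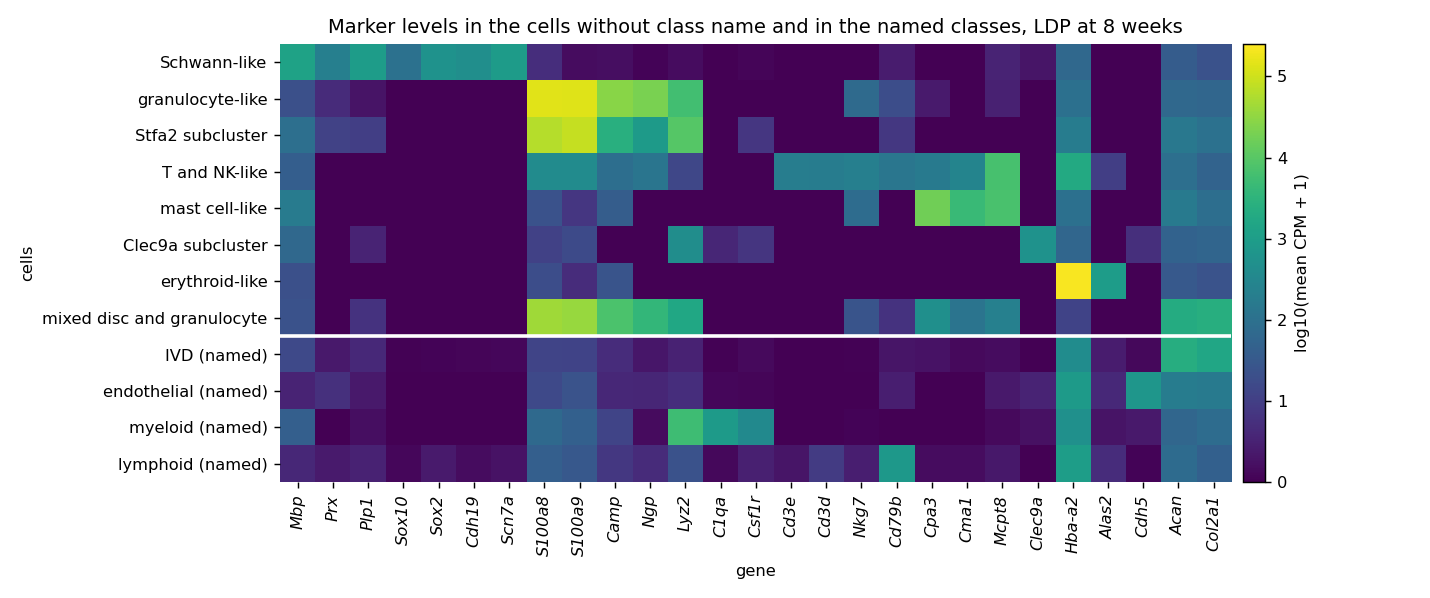
Mean CPM of marker genes on a log10 scale (colour; dark, near 0; yellow, highest) in the 8 kinds of member (upper rows) and in the 4 named classes (lower rows) of the injured 8-week libraries. Sox10, Sox2, Cdh19 and Scn7a are high in the Schwann-like row alone of those shown, S100a8 and S100a9 are highest in the 3 rows with granulocyte genes, Hba-a2 in the erythroid-like row, and C1qa and Csf1r in the named myeloid row.

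Scn7a, a sodium channel of non-myelinating Schwann cells, and Cdh19, a cadherin of their precursors, had a UMI in 75.6% and 69.4% of the Schwann-like members and in none of the other kinds of member. The myelin genes Mbp and Pmp22 were found in other kinds of member too. Mbp, a protein that compacts the myelin sheath, averaged 26.4, 1235, 64.7 and 88.5 CPM over all members of rats 5, 6, 7 and 8, and Prx, a scaffold of mature myelinating Schwann cells, 0, 208, 2.43 and 22.7 CPM. Mbp averaged 1288 CPM in the Schwann-like members and 173 CPM in the mast cell-like ones, and Pmp22, another myelin protein, 2645 and 1247 CPM. Rat 6 was highest for Mbp and Prx, and rats 5 and 7 were at or near 0 for Prx. Sox10, the transcription factor that sets Schwann cell identity, averaged 3.28, 96.7, 0.470 and 0 CPM. In the named classes Sox10 was at most 0.738 CPM in any library.

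The 5 Schwann-like subclusters differed in how much myelin message they carried. Subclusters 1, 2, 5, 7 and 8 held 190, 153, 114, 64 and 64 cells of rat 6 among their 202, 154, 116, 66 and 64, so their levels describe that library and could not be had without it. Subcluster 5 (116 cells, 114 of them from rat 6, median 2294 UMIs) averaged 5028 CPM of Mbp, 10854 of Pmp22 and 1009 of Prx. All 17 genes of the myelin list counted as detected markers there, with Cldn19, of the myelin tight junctions, at 313 CPM and Kcna1 and Kcna2, potassium channels best known from axons, at 64.5 and 109 CPM. Subcluster 8 (64 cells, all from rat 6) had 13 of 17, with Mbp at 1326 CPM and the highest Sox10 of the 5 subclusters, 373 CPM. In subclusters 7, 1 and 2 Mbp averaged 661, 225 and 120 CPM and Prx 15.8, 20.6 and 6.5 CPM.

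Of the 11 listed genes of non-myelinating and repair Schwann cells, 5 (Scn7a, Cdh19, L1cam, Gfap and Ncam1) were lower in both subclusters 5 and 8 than in each of subclusters 7, 1 and 2, and the others did not divide the subclusters in that way. Scn7a averaged 2203, 1177 and 661 CPM in subclusters 7, 1 and 2 against 451 and 248 CPM in subclusters 5 and 8. Cdh19 averaged 959, 642 and 376 CPM against 238 and 115 CPM. Ngfr, the low-affinity neurotrophin receptor p75NTR, averaged 41.4, 167 and 253 CPM in subclusters 7, 1 and 2, 18.3 CPM in subcluster 5 and 259 CPM in subcluster 8. L1cam, an adhesion protein of unmyelinated fibres, was highest in subcluster 7 at 171 CPM and at 6.3 and 5.4 CPM in subclusters 5 and 8. Sox2, a repressor of myelination, ranged from 336 to 790 CPM over all 5.

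Growth factor genes differed between the subclusters. Btc, or betacellulin, averaged 253 and 211 CPM in subclusters 2 and 8 and 0 to 37.8 CPM in the other 3, and Cntf, ciliary neurotrophic factor, averaged 420 CPM in subcluster 5 and 55.2 to 118 CPM elsewhere. Artn was detected in 0.495% of the cells of subcluster 1 and in none of the other 4 subclusters, and Gdnf ranged from 0 to 8.3 CPM. Gap43, a growth-associated protein, ranged from 5.0 to 15.1 CPM. Cxcl1, a chemokine that draws neutrophils, averaged 10052 and 6505 CPM in subclusters 1 and 2, 2098 and 1409 CPM in subclusters 7 and 5 and 17.9 CPM in subcluster 8. Cryab, a small heat shock protein, averaged 11311, 11147, 7924, 5593 and 2374 CPM in subclusters 1, 2, 8, 5 and 7. Mki67, a mark of dividing cells, was at most 15.3 CPM in any of the 5.

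Immediate early genes varied widely between the same subclusters. Fos averaged 10584 CPM in subcluster 7, 3927 in subcluster 5 and 1670 in subcluster 1, but 143 in subcluster 8 and 94.0 in subcluster 2. Atf3, a stress-responsive transcription factor that nerve injury induces in glia, averaged 7528, 2938, 2249, 1447 and 1184 CPM in subclusters 7, 5, 1, 8 and 2. Tissue digestion is known to induce these genes, and its part in these values was not tested. Over all members, the immediate early list summed to 730, 10181, 1639 and 3625 CPM in rats 5 to 8, against 2244 CPM in IVD and 6994 CPM in endothelial cells.

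**Figure D3:**
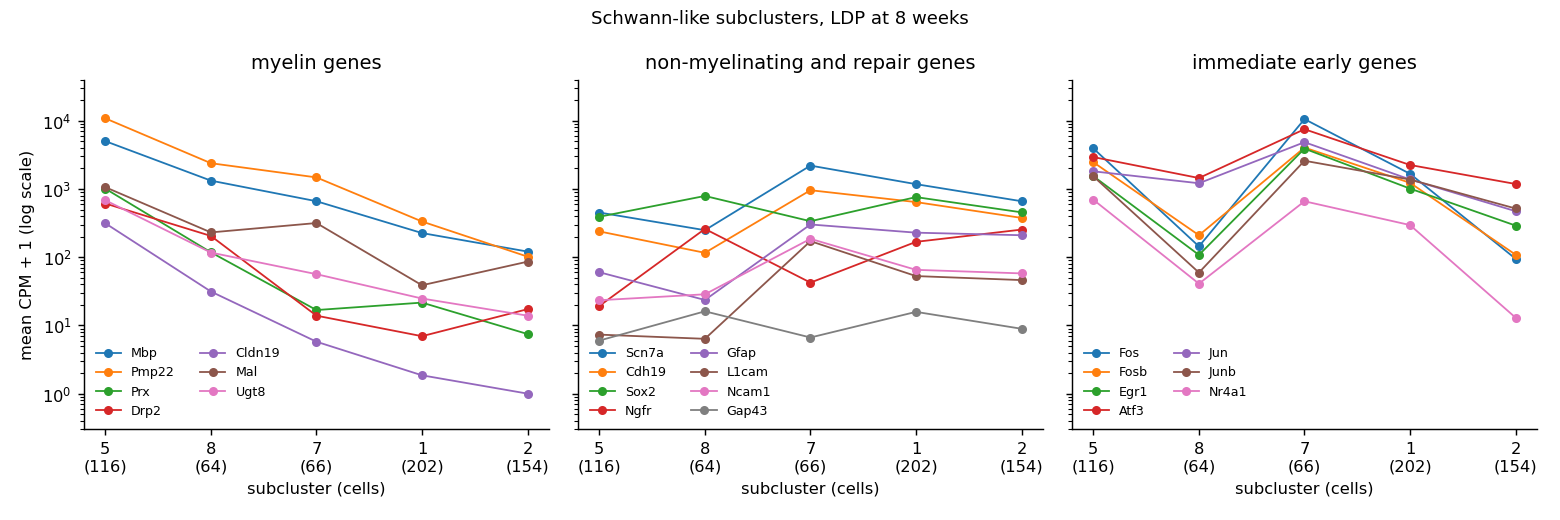
Mean CPM (plus 1, log scale) of myelin genes (left), genes of non-myelinating and repair Schwann cells (middle) and immediate early genes (right) in the 5 Schwann-like subclusters, with cell numbers in brackets and lines joining the values of 1 gene. Subcluster 5 has the most myelin message (Mbp at 5028 CPM), subcluster 7 the most Scn7a (2203 CPM) and Fos (10584 CPM), and subclusters 8 and 2 the least Fos.

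Outside rat 6 there were few Schwann-like cells to compare. The 11 of rat 8 averaged 82.0 CPM of Mbp and 851 CPM of Scn7a, and the 5 of rat 5 averaged 220.0 and 824 CPM. Those of rat 6 averaged 1322 and 922 CPM. The mean of rat 6 pools 5 subclusters, while 9 of the 11 cells of rat 8 fell in subcluster 1. Within subcluster 1, Mbp averaged 234 CPM in rat 6 and 100 CPM in rat 8, and Scn7a 1199 and 828 CPM. The Schwann-like cells of rat 8 also carried more message of the disc genes Comp and Col2a1. These averaged 1011 and 493 CPM there, against 76.1 and 13.4 CPM in those of rat 6. Sox10 averaged 0 CPM in rat 8 and 104 CPM in rat 6, while Ngfr was higher in rat 8, at 331 against 152 CPM. Within subcluster 1, Sox10 averaged 14.5 CPM in rat 6 and 0 CPM in rat 8, and Ngfr 159 and 340 CPM. The source of the disc message in the Schwann-like cells of rat 8 was not tested. With 5 and 11 cells the means of rats 5 and 8 rest on little. Genes of sterol synthesis, which growing myelin draws on, were more than 2-fold above every named class in rat 6 for 2 of 16, where 5.04% of all listed genes were. There, Idi1 averaged 1271 CPM and Hmgcs1 528 CPM against means of 323 and 209 CPM in IVD cells.

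Granulocyte-like members carried the secreted and granule products of neutrophils and of their precursors. S100a8, which with S100a9 forms calprotectin, averaged 17928, 1665, 70089 and 4369 CPM over all members of rats 5 to 8, against at most 134 CPM in a named class. Rats 7 and 5 stood highest, while rats 6 and 8 held only 7 and 1 granulocyte-like cells. In subcluster 4 (124 cells) the defensins of primary granules led, with RatNP-3b at 31848 CPM, Np4 at 10394 CPM and Defa5 at 7564 CPM, and Cebpe, a transcription factor of granule formation, was at 423 CPM. Defa5 had a UMI in 34.7% of these cells. Within the granulocyte-like cells the libraries differed in these genes, since RatNP-3b averaged 92614 CPM in the 20 cells of rat 5 and 14531 CPM in the 149 cells of rat 7, while Mmp8, a collagenase of later neutrophil stages, averaged 175 and 4755 CPM. All 20 cells of rat 5 were in subcluster 4, while 52 of the 149 cells of rat 7 were in subcluster 10.

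The Stfa2 subcluster had products of mature neutrophils, and 8 of 10 granulocyte markers counted as detected. Its cells had a median of 1685 UMIs, at 0.271 of the median of their own libraries, and none of those markers was among its 10 leading genes. Being both shallow and without such a marker, it was left without a name, whereas subcluster 2, at 0.834 of its libraries' median, was not shallow. These conditions did not decide every name. The Clec9a subcluster, at 1.32 of its libraries' median, had 7 of 13 myeloid genes detected and none among its 10 leading genes, and it was left unnamed too. In the Stfa2 subcluster S100a9 averaged 85784 CPM, Mmp8 9976 CPM and Il1b, an inflammatory cytokine, 611 CPM. Of its 90 cells 84 came from rat 7.

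Lyz2, a lysozyme of macrophages and granulocytes, was found in several kinds of member. It averaged 1090, 103, 4184 and 379 CPM over all members of rats 5 to 8, and it was present in 99.4% of the granulocyte-like cells, 98.9% of the Stfa2 subcluster, 84.4% of the Clec9a subcluster and 77.3% of the mixed cells. In the Clec9a subcluster 7 of 13 myeloid genes, Cd68 and Aif1 among them, counted as detected. In the named myeloid class Lyz2 averaged 5389 CPM. It averaged 5777 CPM in the granulocyte-like cells and 9293 CPM in the Stfa2 subcluster, but 1647 CPM in the mixed cells and 436 CPM in the Clec9a subcluster. The complement genes C1qa, C1qb and C1qc, which tissue macrophages make, averaged at most 1.26 CPM in the members of any library, against 881, 853 and 829 CPM in the named myeloid class. Csf1r, the receptor macrophages depend on, averaged at most 2.01 CPM in members and 371 CPM in the myeloid class.

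Mast cell-like members held proteases and other products of mast cell granules. Cpa3 had a UMI in all 59 cells and averaged 16612 CPM, and Cma1, or chymase, averaged 4604 CPM and Tpsb2, a tryptase, 2278 CPM. Kit, the receptor for stem cell factor, averaged 473 CPM and Hdc, which makes histamine, 890 CPM. Cpa3 was at 12523 CPM in the 8 cells of rat 5 and at 16753 CPM in the 43 cells of rat 7, and Cma1 at 8881 and 3719 CPM, so of the libraries with at least 5 such cells rat 7 was higher for the first gene and rat 5 for the second. Mcpt8 was also high there, at 7012 CPM with at least 10 UMIs in 35 of 59 cells. Mcpt8, Mcpt8l2, Mcpt1l1 and Mcpt2 are similar copies of a gene family, as are the defensins and the globins, and how the authors counted reads shared by such copies is not given in the sources used here.

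The T and NK-like subcluster was itself mixed. Of its 152 cells, 71 (46.7%) had a UMI of Cd3d, Cd3e or Cd3g, the signalling chains of the T cell receptor, and 109 had a UMI of any gene of the T and NK list. Cd3e averaged 200, 348, 134 and 343 CPM in its cells of rats 5 to 8, and Ccl5, a chemokine of cytotoxic cells, 713, 1300, 469 and 0 CPM. The B cell genes Cd79b or Ebf1 had a UMI in 26 cells, a count that overlaps the others. At least 10 UMIs of Mcpt8 were found in 8 cells, none of which had a Cd3 UMI. Over all 152 cells Mcpt8 averaged 6726 CPM, against 7012 CPM in the mast cell-like cells. By library it averaged 11306, 26336, 24.8 and 0 CPM in the T and NK-like cells of rats 5 to 8. Genes of the T and NK list were also found in 34 of 45 cells of the Clec9a subcluster, whose leading genes include Cd2, and in 28 of 177 granulocyte-like cells. None of Cd3, Mcpt8 at that depth, Cd79b or Ebf1 was seen in 48 cells. The median depth of the whole subcluster was 2759 UMIs.

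The Clec9a subcluster had the genes of antigen-presenting cells. Clec9a, a receptor for dead cells on cross-presenting dendritic cells, had a UMI in 75.6% of its 45 cells and averaged 570 CPM, against 0.538 CPM in the other members. The class II genes RT1-Da, RT1-Db1 and RT1-Ba averaged 13274, 14120 and 7272 CPM. RT1-Da was at 12300, 15315 and 13466 CPM in the cells of rats 5, 6 and 7, so the 3 libraries with at least 5 such cells were close, while Clec9a was at 282, 715 and 675 CPM. Slpi, a protease inhibitor, was at 25313 CPM. No dendritic cell list had been set, so the cells are called after Clec9a, which stands beside Slpi and Plet1 among their leading genes.

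Erythroid-like members were mostly those of rat 5. Hba-a2, an alpha globin, averaged 56568, 759, 2461 and 6467 CPM over all members of rats 5 to 8 and 217315 CPM in the 35 erythroid-like cells. Alas2, the first enzyme of haem synthesis in red cells, averaged 975 CPM there, and Klf1, the master transcription factor of the lineage, 811 CPM. Genes of dividing cells were high there, with Mki67 at 1153 CPM and a UMI in 85.7% of the cells, against at most 71.0 CPM in the other kinds of member. The named classes also held globin message, up to 3350 CPM in a library's endothelial class.

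Disc genes were found at low levels in every kind of member, and a small set carried them at high levels. Comp had a UMI in 14.3% of the erythroid-like cells, 28.8% of the granulocyte-like cells and 36.8% of the T and NK-like cells. It had one in 40.0% of the Stfa2 subcluster and 90.9% of the mixed cells. The source of this message was not tested. The 22 cells of the mixed subcluster, all from rat 7, averaged 2131 CPM of Acan and 2424 CPM of Col2a1. These genes encode the aggrecan and type II collagen of disc matrix. The same cells averaged 42750 CPM of S100a8. Their median was 7482 UMIs, against 2413.3 in all members and 6608.0 in the IVD cells of that library. The authors' own clustering put 6 and 10 of the 22 mixed cells in the clusters numbered 1 and 2, where 9 and 10 of the 1182 members fell in all. Counting more widely, 78 members reached the 5th percentile of the summed disc marker level of IVD cells in their library, 70 of them in rat 7, 6 in rat 6 and 2 in rat 8. That percentile was 3001, 1319, 1117 and 2885 CPM in rats 5 to 8, so the counts were not taken at the same level. Whether the members carrying disc genes at high levels were pairs of cells read as 1 was not tested. Any pair of the 4 libraries shared 1 to 23 cell barcodes, and 7 of the 63 shared barcodes belonged to a member.

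Whether injured discs at 8 weeks held more such cells was asked first of the class column itself. The share of unnamed cells was 1.61%, 28.3%, 4.06% and 0.354% in the LDP libraries of rats 5 to 8 and 9.80%, 7.55%, 1.87% and 5.13% in their CON libraries. The 95% Clopper-Pearson interval of rat 6 was 26.4% to 30.2% and that of rat 8 was 0.242% to 0.499%, which covers counting error only. The groups overlapped, with means of 8.57 ± 13.2% and 6.09 ± 3.39% (SD, n = 4 each) and p = 0.971 (two-sided exact permutation test, 70 splits, smallest possible p 0.0286). Without the LDP library of rat 6 the difference turned from 2.48 to -4.08 percentage points (p = 0.114, exact permutation test). Against LDP at 2 weeks, where the shares were 0.264%, 1.56%, 2.06% and 1.86%, the difference was 7.14 percentage points (p = 0.314, exact permutation test), and 0.57 without rat 6 (p = 0.629, exact permutation test).

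The same name did not cover the same cells in the injured and control files. Marker cells were therefore counted among all cells of a library, whatever their class name, as those with at least 2 genes of a list after each cell was thinned to 1000 UMIs, which 28127 LDP and 26750 CON cells had. In LDP, 67 of 72 mast cell marker cells and 34 of 36 T and NK marker cells were unnamed. In CON, 0 of 31 and 1 of 29 were unnamed, and 26 and 27 of them carried the myeloid name. Endothelial marker cells went the opposite way: 3 of 418 were unnamed in LDP, but 794 of 822 were in CON, where no cell had the endothelial name. Schwann marker cells were unnamed in 329 of 337 cases in LDP and named IVD in 24 of 25 cases in CON.

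Schwann marker cells were 0.0292%, 14.9%, 0% and 0.0554% of the LDP libraries of rats 5 to 8 and 0.0867%, 0.118%, 0% and 0.141% of their CON libraries. Sox10, Mag and Ncmap, which the control files do not list, were left out, which leaves 7 genes. The 0 of rat 7 in LDP was 0 of 10051 cells, which allows a share of up to 0.0298% (3 cells), and that in CON was 0 of 4654, which allows 0.0645%. Using all UMIs in place of 1000, the LDP shares were 0.145%, 25.4%, 0.138% and 0.409% and the CON shares 0.342%, 0.426%, 0.405% and 0.620%, so that LDP was lower in rats 5, 7 and 8. As background, 0.0324% of IVD cells in LDP (8 of 24667) reached 2 of these genes, at median depths of 6426.6 to 9888.9 UMIs before thinning, against 329 of 1177 unnamed cells at 2413.3 to 4614.0 UMIs. Rat 6 alone was above every CON library, and its rat had a higher share in LDP than in CON while rats 5 and 8 had a lower one. The means were 3.75 ± 7.44% and 0.0864 ± 0.0617% (SD, n = 4 each; p = 0.943, exact permutation test), and without the LDP library of rat 6 the difference was -0.0581 percentage points (p = 0.229, exact permutation test).

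Against LDP at 2 weeks, with 7 genes listed in both, the Schwann marker shares were 0.0292%, 15.5%, 0% and 0.0554% at 8 weeks and 0.428%, 0.662%, 0.162% and 0.194% at 2 weeks. The difference of the means was 3.54 percentage points (p = 1.0, exact permutation test). Without rat 6 it was -0.333 percentage points (p = 0.0571, exact permutation test, the smallest p that 3 libraries against 4 allow). In the 2-week files the name again fell differently: among cells with at least 3 Schwann marker genes, 155 of 164 were unnamed in CON and 200 of 219 were named IVD in LDP.

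The other kinds of cell were tested in the same way, as a choice made after the values were seen, with p-values adjusted over 6 lists by the Benjamini-Hochberg method. Mast cell marker cells were 0.175%, 0.316%, 0.468% and 0.0665% of LDP libraries and 0.149%, 0.210%, 0.0645% and 0% of CON libraries of rats 5 to 8, where the 0 of 6394 cells allows up to 0.0469%. The LDP value was the higher one in 4 of 4 rats, but the groups overlapped (means of 0.256 ± 0.174% and 0.106 ± 0.0922%, n = 4 each, exact permutation p = 0.171, adjusted 0.513), and the difference of 0.151 percentage points was 0.0803 without the LDP library of rat 7. In the rat-paired sign-flip test p was 0.125, which is the smallest that 4 pairs can give. T and NK marker cells averaged 0.165 ± 0.125% and 0.103 ± 0.0696% (n = 4 each, exact permutation p = 0.457, adjusted 0.720). The difference of 0.062 percentage points was 0.0118 without the LDP library of rat 6 and 0.0328 without the CON library of rat 8, and 0.114 without the LDP library of rat 8. This count finds few of these cells: 34 unnamed LDP cells met it, while the T and NK-like subcluster held 152. Rat 8 had 1 such cell in LDP and 1 in CON.

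Granulocyte marker cells were 0.453%, 0.452%, 2.40% and 0.0332% of LDP libraries and 1.78%, 0.0393%, 0.0215% and 0.0626% of CON libraries. Rat 5 was high in CON and rat 7 in LDP, and the means of 0.834 ± 1.06% and 0.477 ± 0.872% did not differ beyond that spread (n = 4 each, exact permutation p = 0.514, adjusted 0.720). Without the LDP library of rat 7 the difference was -0.164 percentage points. Erythroid marker cells averaged 0.409 ± 0.505% and 1.58 ± 2.35%, with CON of rat 5 at 5.01% (n = 4 each, exact permutation p = 0.600, adjusted 0.720), and the difference of -1.18 percentage points was -0.0351 without that library. Endothelial marker cells averaged 1.57 ± 0.460% in LDP and 2.96 ± 0.844% in CON, lower in LDP in 4 of 4 rats (exact permutation p = 0.0571, adjusted 0.343). None of these 6 differences passed the test at 0.05.

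**Figure D4:**
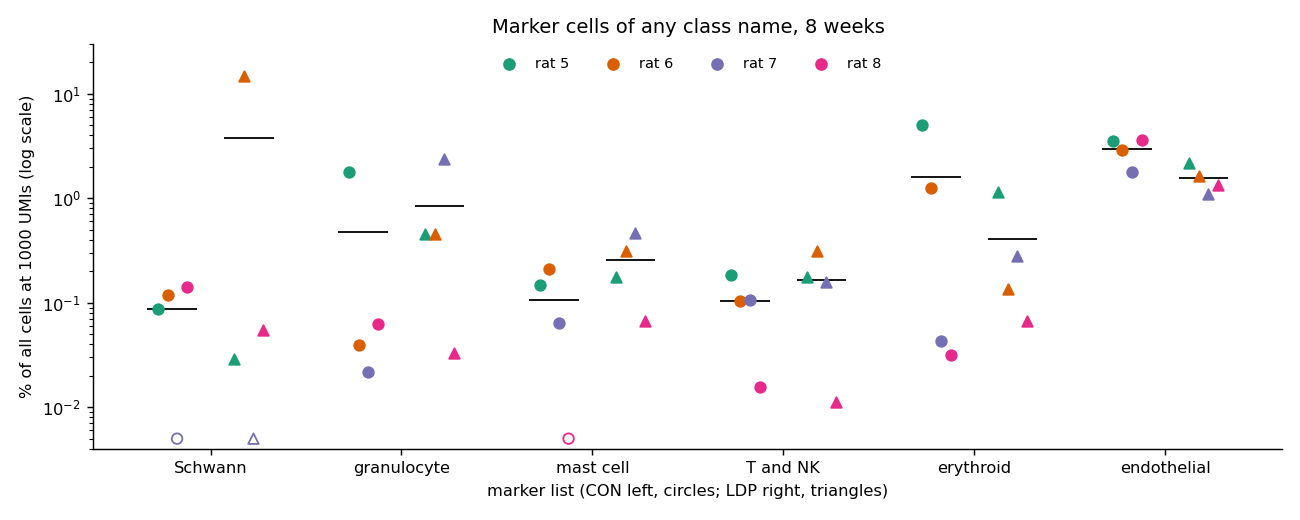
Percentage of all cells of a library, thinned to 1000 UMIs, with at least 2 genes of each marker list (log scale; circles, CON; triangles, LDP at 8 weeks; colours, rats; lines, group means; open symbols at the lower edge, 0 cells). Rat 6 in LDP stands at 14.9% for the Schwann list with all other libraries at or under 0.141%, while for the other lists the 2 groups overlap.

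A fit across genes compared the unnamed cells of LDP with those of CON at 8 weeks, using limma on log2(mean CPM + 1) with the rat as block. Of 7564 genes tested, 267 (3.53%) passed an adjusted p of 0.05, 44 of them (0.582%) higher and 223 (2.95%) lower in LDP, and the median change over all genes was -0.26 on the log2 scale. The number depended on the libraries: leaving out rat 8 gave 7 higher and 46 lower, rat 7 gave 18 and 71, rat 5 gave 20 and 75, and leaving out rat 6 gave 159 and 459. The fit contrasts cells that share only the lack of a name. Endothelial, mast cell, T and NK and Schwann marker cells mostly lacked a name in one group and carried one in the other, as counted above. For their genes naming and tissue cannot be told apart, and the values below are given as a description with no test.

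Of the endothelial list, 7 genes averaged at most 10.5 CPM in the LDP members of any rat, while Kdr, a receptor for vascular growth factor, averaged 14.2, 11.6, 116 and 97 CPM in rats 5 to 8 and 1045 CPM in the Clec9a subcluster. Flt1 and Cdh5, another such receptor and the cadherin of vessel walls, averaged 547, 483, 1051 and 923 CPM and 409, 401, 832 and 780 CPM in the unnamed CON cells of rats 5 to 8. In LDP, Flt1 had no UMI in any member and Cdh5 had 2 UMIs. Adgrl4, Adgrf5 and Emcn were the other genes with the largest differences in this direction, and Adgrl4 and Emcn too had no UMI in any LDP member. In the named endothelial class of LDP, Cdh5 averaged 635 to 862 CPM.

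Mast cell and basophil proteases were the genes with the largest differences in the other direction. Mcpt1l1 had 0 UMIs in the unnamed CON cells and 1641 in the members, Mcpt8 had 15 and 9918, and Cpa3 had 3 and 2597. Cma1 and Mcpt8l2 made up the 5. These proteases were not missing from CON discs: in the named myeloid class Cpa3 averaged up to 1606 CPM and Mcpt8 up to 8680 CPM in a CON library, and in LDP both were at most 1.38 CPM in the myeloid class.

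The T and NK genes Cd3e, Nkg7, Cd2 and Cd3d were also higher in the LDP members of every rat. Ccl5 averaged 250, 46.1, 92.4 and 0 CPM in LDP and 0, 8.42, 0 and 0 CPM in CON of rats 5 to 8, so rat 8 had none in either. Cd3e averaged 70.3, 12.2, 26.5 and 107 CPM in LDP and 0, 0.192, 0 and 0 CPM in CON. Nkg7, a protein of cytotoxic granules, averaged 134, 12, 65.2 and 48.8 CPM in LDP and 3.63, 1.38, 0 and 0 CPM in CON. In the CON myeloid class Cd3e averaged 41.3 to 85.7 CPM, and in that of LDP it was 0. Scn7a averaged 37.1, 858, 1.41 and 293 CPM in LDP and 0 in every unnamed CON set, where Schwann marker cells carried the IVD name. Granulocyte marker cells were mostly unnamed in both groups (268 of 285 in LDP and 127 of 152 in CON). Of the 9 granulocyte genes tested none passed, where 0.582% of all genes were higher and 2.95% lower, with S100a8 at 269 to 13047 CPM in CON and 1665 to 70089 CPM in LDP.

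**Figure D5:**
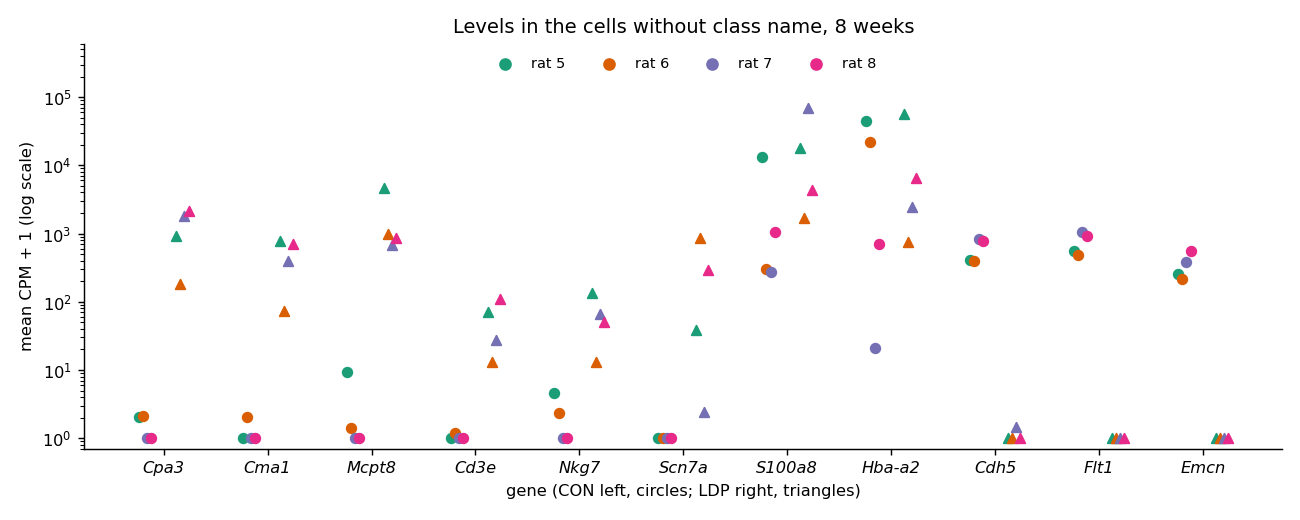
Mean CPM plus 1 (log scale) of chosen genes in the cells without class name of each 8-week library (circles, CON; triangles, LDP; colours, rats). Cpa3, Cma1, Mcpt8 and Cd3e are near 0 in CON and above it in all 4 LDP libraries, Cdh5, Flt1 and Emcn do the reverse, and S100a8 and Hba-a2 overlap.

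A fit of the Schwann marker cells alone, LDP against CON, could not be fitted. At least 3 Schwann marker genes were found in 2, 468, 1 and 7 cells of the LDP libraries of rats 5 to 8 and in 7, 11, 0 and 6 cells of the CON libraries, so rat 6 was the only library with the 20 cells required.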

How the data were processed

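Discs of 8 rats gave 16 single-cell libraries. Per the authors, cells were filtered on mitochondrial share, gene count and UMI count, and the cells of each group were put into K-means clusters that marker genes named. The labels name Partek and the build rn6. The aligner and any treatment of doublets or free RNA are not given in the sources used here, and no doublet caller was run. The deposited gene values are log2(CPM + 1) per cell, as the authors computed them. Each cell's deposited total is an expected count, its number of expressed genes a count, and the mitochondrial and ribosomal values are a percent, all from the authors' files.

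CPM times the total gave whole UMIs within 0.02 for 99.4% of values above 0 (lowest library 99.385%). Members, marker lists and the named-gene rule were chosen with earlier results of these data known. Named were genes of the marker lists, up to 15 genes with the largest ratio of members over named classes, up to 8 per subcluster, and 5 per direction of a fit. Genes outside this rule were chosen after their values were seen. The genes tested between groups are those listed in both files, since a gene that is not listed has no value. Subclusters used 2000 variable genes, 20 components, 15 neighbours and Leiden resolution 0.5 (scanpy 1.11.5). Genes were tested with limma 3.58.1 on log2(mean CPM + 1), with genes at 10 CPM or more in 3 libraries and Benjamini-Hochberg adjustment, and with edgeR 4.0.16 on summed recovered UMIs as an alternative. The script was tested on simulated data with the same noise for every gene and no rat effect, which does not measure its power on these data. Shares were compared with the library as unit by exact permutation tests. Libraries of the same number come from the same rat, so the rat was the block. The deviations of a rat's 2 libraries correlated at 0.276, -0.213, -0.160 and 0.0408 for rats 5 to 8. Each cell of the marker counts was thinned to 1000 UMIs, and, for the lists other than the Schwann and endothelial ones, genes seen in over 1% of IVD cells were left out. A library of 2221 cells can show a share of 3 cells as 0.136%. A further gene of the Schwann and myelin lists is not reported here.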

Additional observations from a re-analysis of the deposited data

Results flagged for a closer look

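Of 24 sets of 4 libraries examined for a single library far from the other 3, 6 were marked by Dixon's ratio at its 95% critical value, where chance would mark about 1 in 20. In LDP at 8 weeks, rat 6 stood apart in the share of cells without a class name (28.3%), in the share of Schwann marker cells (14.9% with the genes shared with CON and 15.5% with those shared with LDP at 2 weeks) and in the summed level of the Schwann marker genes in its members (7820 CPM). These are 4 readings of the same cells. The LDP library of rat 5 stood apart in the summed level of erythroid genes in its members (64209 CPM), and its CON library in the share of granulocyte marker cells (1.78%).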

How the results depend on the processing

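The difference in the share of unnamed cells between LDP and CON at 8 weeks turned negative on the logit scale (-0.558) and without the LDP library of rat 6, and ran from -4.08 to 5.23 percentage points as each library was left out. Against LDP at 2 weeks it ran from 0.57 to 9.88. For Schwann marker cells these ranges were -0.0581 to 4.91 (CON) and -0.333 to 4.85 (LDP at 2 weeks), for granulocyte marker cells -0.164 to 0.793, for T and NK marker cells 0.0118 to 0.114, for erythroid marker cells -1.69 to -0.0351, for mast cell marker cells 0.0803 to 0.214 and for endothelial marker cells -1.79 to -1.18, without a call at any setting. With the replicate block, as sign flips within rats, p was 0.875 for unnamed cells and 1.0 for Schwann marker cells. In the fit across genes, 44 higher and 223 lower became 71 and 338 with no replicate block, 70 and 341 with a pseudocount of 10 CPM, and 17 and 102 with a limit of 50 CPM, and ran from 7 to 159 and from 46 to 459 as each rat was left out. edgeR gave 47 and 158. The 10 genes named from that fit kept their direction at every setting that tested them, and for these genes naming and tissue cannot be told apart. The 40 genes above every named class became 52 to 173 with a library left out. The cause of these shifts was not tested. Fewer rats or libraries entered the settings that left one out, while the other settings kept every library. Leiden resolutions of 0.25 and 1.0 gave 9 and 16 subclusters, and K-means 13 with an adjusted Rand index of 0.548. No alternative was run for the Schwann marker cells alone, since that comparison could not be fitted.

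With 4 rats per group, differences between rats set the precision. The names were given apart in each group of files, and the unnamed sets of LDP and CON hold different kinds of cell, so naming and tissue cannot be told apart in the fit across genes. Nearly all Schwann-like values rest on 1 library.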
